A study of Mus musculus with 9 samples.

Results

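The histone cluster genes are the genes of the mouse Hist1 to Hist4 clusters, which encode the linker histone H1 and the core histones H2A, H2B, H3 and H4. They were defined by an older symbol starting with Hist1h, Hist2h, Hist3h or Hist4h. The count tables mostly carry the newer names, so that 9 of 55291 gene rows matched by their own symbol and 4 of those had 10 or more reads. Through the older symbols in RefSeq, 70 rows matched (6 H1, 20 H2A, 19 H2B, 12 H3 and 13 H4). Of these, 54 had 10 or more reads summed over the 9 libraries and were kept (5 H1, 12 H2A, 14 H2B, 10 H3 and 13 H4), so that 49 were core and 5 were linker genes. The low-count filter for the test left 35 of the 54 (5 H1, 5 H2A, 10 H2B, 7 H3 and 8 H4), which held 99.1% of the histone cluster reads.

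The libraries were made from RNA of mouse acute myeloid leukaemia (AML) cells carrying 1 Trp53 allele with the missense change R172H and 1 delta allele, a genotype shared by all groups. The 3 groups were cells grown in culture, cells recovered from bone marrow and cells recovered from the lungs of recipient mice described as wild type, with 3 libraries each. The labels give no sort or gate, no age of the mice, and no statement that libraries came from separate cultures or animals, so p-values measure the spread between these libraries, which may be technical. The cDNA kit (SMART-seq v4) primes with oligo-dT, which copies RNA that carries a poly(A) tail.

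Histones package DNA into nucleosomes: pairs of the core histones form the spool, and H1 binds the linker DNA where it enters and leaves. Most histone cluster genes are replication-dependent. They are transcribed in S phase, have no introns, and their mRNAs end in a conserved stem-loop in place of a poly(A) tail. The stem-loop binding protein SLBP and the U7 small nuclear RNP act at this end, and a minority of cluster genes can also give longer, polyadenylated mRNAs. A library primed on poly(A) therefore sees mostly transcripts that run past the stem-loop, and the values below are levels of that captured RNA, not of all histone mRNA.

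The stem-loop is shown first because it is the feature that sets these mRNAs apart in such a library. The 16-base motif GGNNCTTNTNAGNGCC, searched on the sense strand after the stop codon of the GENCODE M21 transcripts, was present in 44 of the 70 genes and in 38 of the 54 kept. A model without it may stop short of the stem-loop, as short models such as H2bc15 (381 bases of exon) and H4c12 (312) may do. Its absence from a model therefore does not mean that the gene lacks it. The form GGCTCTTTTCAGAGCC was found in 21 kept genes of the H1, H2A, H2B and H3 classes, and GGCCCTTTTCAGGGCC in 7, all of them H4. Below, 1 gene is given for each of 6 forms, 5′ to 3′ in DNA letters, with the stem-loop in capitals and 5 flanking bases on each side.
H1f2: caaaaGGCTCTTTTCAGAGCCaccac
H2ac20: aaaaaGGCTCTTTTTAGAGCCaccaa
H3c6: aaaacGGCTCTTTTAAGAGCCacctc
H3c8: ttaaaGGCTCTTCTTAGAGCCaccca
H4c14: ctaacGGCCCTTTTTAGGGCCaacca
H4c4: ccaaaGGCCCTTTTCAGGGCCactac
In these 6 transcripts the loop began between 21 and 38 bases after the stop codon. The annotated transcript went on for only 57 bases past it in H2ac20 and 47 in H3c8, and for 840 in H1f2, 369 in H3c6, 1257 in H4c14 and 770 in H4c4.

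Promoters of 4 linker genes follow, because these genes did not change alike between bone marrow and lung. Each is the 150 bases before the transcription start in RefSeq (build GRCm38.p6), 5′ to 3′ on the gene's strand. For H1f3 this window lies inside the GENCODE gene model used below, which begins at 23553262. Capitals mark AAACACA (the H1 box, an element of H1 promoters), CCAAT and TATAAA, each searched on both strands. The 4 regions are chr13:23738657-23738806 (plus strand) for H1f2, chr13:23554882-23555031 (plus strand) for H1f3, chr13:23622559-23622708 (minus strand) for H1f4 and chr13:21780626-21780775 (minus strand) for H1f5.
H1f2: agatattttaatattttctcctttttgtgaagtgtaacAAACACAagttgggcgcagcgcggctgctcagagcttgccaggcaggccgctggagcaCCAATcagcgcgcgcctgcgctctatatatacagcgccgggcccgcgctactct
H1f3: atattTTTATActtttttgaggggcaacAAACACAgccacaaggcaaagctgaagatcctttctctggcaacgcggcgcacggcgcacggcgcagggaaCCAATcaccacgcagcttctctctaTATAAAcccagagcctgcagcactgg
H1f4: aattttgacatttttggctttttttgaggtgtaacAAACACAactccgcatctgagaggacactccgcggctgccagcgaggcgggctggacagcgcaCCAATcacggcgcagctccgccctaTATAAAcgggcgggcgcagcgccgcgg
H1f5: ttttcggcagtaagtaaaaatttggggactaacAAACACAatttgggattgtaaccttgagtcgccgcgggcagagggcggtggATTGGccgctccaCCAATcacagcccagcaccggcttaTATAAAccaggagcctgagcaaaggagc
AAACACA lay 112, 122, 115 and 117 bases before the start of H1f2, H1f3, H1f4 and H1f5, and the nearest CCAAT lay 54, 51, 52 and 53 bases before it. TATAAA lay 26, 27 and 28 bases before the start of H1f3, H1f4 and H1f5 and was not among the letters of the H1f2 window. These promoters are therefore much alike in what was searched. Of the 54 kept genes, 43 had an entry in the RefSeq promoter table. AAACACA was in 4 of 5 linker and 2 of 38 core promoters, against 3.53% of all 32851 promoters. CCAAT was in 35 of the 43 against 24.5% of all, TATAAA in 18 against 7.57%, and the octamer ATTTGCAT in 5 of 10 H2B promoters against 0.998%. A match describes these letters and is not evidence of binding.

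Libraries held 27485111 to 38761363 counted reads, 1 read being worth 0.0249 to 0.0371 CPM (counts scaled to the TMM-adjusted library size). Histone cluster reads were a small share throughout, from 0.03808% to 0.04023% for culture, from 0.01382% to 0.01856% for bone marrow, and from 0.01458% to 0.01956% for lung. Bone marrow and lung libraries also held more RNA of genes that mark other cells, and whether it came from such cells or from the leukaemia cells was not tested. The 14 neutrophil markers summed to 1.63 to 2.92 CPM in culture, to 371, 672 and 2290 in the bone marrow libraries numbered 1 to 3, and to 105, 17.3 and 15.8 CPM in lung. The AML genes Kit and Myb were at 1170 ± 42.7 and 545 ± 12 CPM in culture (mean ± SD, n = 3, as throughout), whereas Cd34 and Mpo were near 0 there (0.036 and 0.0247 CPM). In bulk RNA, fewer cells of a type and less RNA per cell cannot be told apart.

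Together, the 54 genes were higher in culture than in either tissue. Their summed level was 410, 409 and 395 CPM in culture replicates 1 to 3, 154, 181 and 133 in bone marrow, and 146, 192 and 193 in lung. Every culture library lay above every tissue library, while bone marrow and lung overlapped. The linker sum differed more than the core sum. The 5 linker genes summed to 204, 215 and 199 CPM in culture, 52.5, 66.7 and 41.0 in bone marrow, and 52.4, 79.8 and 78.9 in lung. Core genes summed to 199 ± 6.12 CPM for culture, 102 ± 11 for bone marrow and 106 ± 11.4 for lung.

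Among the core classes, H3 and H2B carried most of the difference from culture. H3 summed to 26.7 ± 1.7 CPM for culture, to 4.86 ± 0.667 for bone marrow and to 7.74 ± 1.34 for lung, and H2B to 87.7 ± 3.48, 30 ± 2.75 and 39.7 ± 1.59 CPM. The H2A and H4 sums differed less. H2A was at 36.3 ± 1.43, 29.2 ± 3.91 and 25.3 ± 2.79 CPM and H4 at 47.9 ± 1.67, 38.4 ± 6.11 and 33.6 ± 5.91 CPM. Relative to culture, the log2 ratio of means in bone marrow was -2.46 for H3, -1.95 for linker genes, -1.55 for H2B and -0.32 for both H2A and H4. In lung it was -1.78 for H3, -1.55 for linker genes, -1.14 for H2B, -0.52 for H2A and -0.51 for H4. Sums of this kind were given no test.

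**Figure D1:**
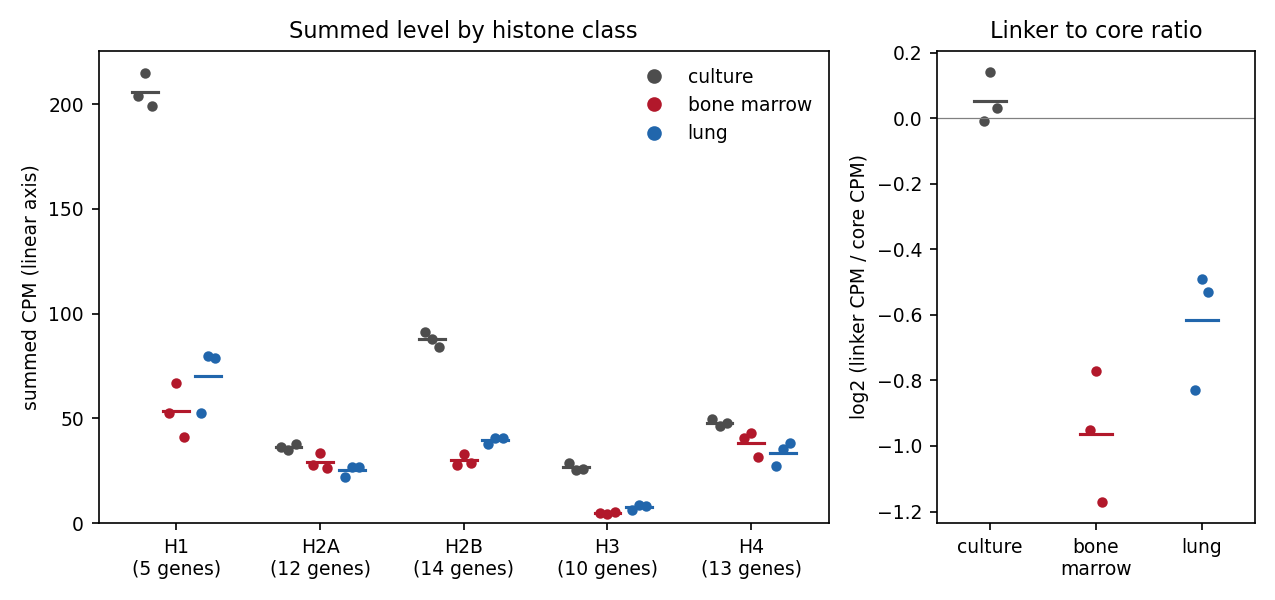
Left, summed CPM (linear axis from 0) of the kept genes of each histone class in each library, with the group mean as a bar; right, log2 of summed linker CPM over summed core CPM per library. Every culture library lies above every tissue library in each class, and the linker to core value is near 0 in culture (mean 0.05) against -0.96 in bone marrow and -0.62 in lung.

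The linker to core ratio was near 1 in culture and lower in both tissues. On the log2 scale it was -0.01, 0.14 and 0.03 in culture, -0.95, -0.77 and -1.17 in bone marrow, and -0.83, -0.49 and -0.53 in lung. Culture did not overlap with the tissues, whereas lung replicate 1 lay within the bone marrow range. Linker genes thus made up 49.8% to 52.5% of the histone cluster reads of culture, 30.8% to 36.9% of those of bone marrow and 36% to 41.6% of those of lung. The sums leaned on few genes: H1f2 gave 80.2% to 83.4% of linker reads from culture, 49.2% to 59.3% from bone marrow and 77.9% to 79.7% from lung. Without H1f2 and the most abundant core gene, H2bc4, the difference of bone marrow from culture turned from -1.02 to 0.25 and that of lung from bone marrow from 0.35 to -0.54. The difference of lung from culture kept its sign, at -0.29 in place of -0.67. As a mean over genes of log2(CPM + 0.5), linker minus core, the lung difference from bone marrow was -0.03. Bone marrow replicate 3, with the most neutrophil RNA, had the lowest linker sum and ratio of the 9 libraries; the part of neutrophil RNA in the ratio was not tested.

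H1f2 (Hist1h1c; ENSMUSG00000036181.2, chromosome 13 from 23738808 to 23740367, plus strand) encodes the linker histone H1.2. Its level was 169, 179 and 160 CPM in culture, 30.9, 39.5 and 20.2 in bone marrow, and 41.4, 63.6 and 61.5 in lung. All 3 groups were apart, culture highest and bone marrow lowest. The log2 change against culture was -2.49 ± 0.24 (SE, as throughout) in bone marrow (adjusted p = 1.8e-05) and -1.61 ± 0.23 in lung (adjusted p = 0.00032). In lung it was higher than in bone marrow by 0.88 ± 0.23 (adjusted p = 0.025). That call was lost in a fit of the 6 tissue libraries with the replicate number as a block (adjusted p = 0.17) or without it (0.065). It was also lost without bone marrow replicate 1 (0.056), lung replicate 2 (0.086) or lung replicate 3 (0.081). With every gene of 10 or more reads tested, its adjusted p was 0.051.

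H1f3 (Hist1h1d, encoding H1.3; chromosome 13 from 23553262 to 23560686) showed the same order at a lower level. It was at 14.9, 15.4 and 14.3 CPM in culture, 1.1, 2.04 and 1.69 in bone marrow, and 2.07, 3.56 and 4.27 in lung. The groups again did not overlap. Its log2 change from culture was the largest among linker genes, at -3.2 ± 0.27 in bone marrow (adjusted p = 4e-07) and -2.18 ± 0.25 in lung (adjusted p = 9.6e-06). Lung exceeded bone marrow by 1.02 ± 0.27 (adjusted p = 0.014). The adjusted p was 0.054 without lung replicate 3, 0.05 without lung replicate 2, and 0.058 in the 6 tissue libraries alone. In a limma-voom fit of all 9 libraries with quality weights it was 0.053.

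H1f4 and H1f5, which encode H1.4 and H1.5, went the other way between the tissues. H1f4 (Hist1h1e) was at 13.7, 14 and 15.3 CPM in culture, 11.8, 13.6 and 9.05 in bone marrow, and 5.21, 6.56 and 8.03 in lung. H1f5 (Hist1h1b) was at 5.97, 5.75 and 8.98 CPM in culture, 8.27, 10.3 and 9.2 in bone marrow, and 3.14, 4.99 and 4.55 in lung. For both genes lung was the lowest group and did not overlap with the others. The log2 change of H1f4 in lung was -0.8 ± 0.18 against bone marrow (adjusted p = 0.0067) and -1.12 ± 0.18 against culture (adjusted p = 0.00015). Its difference between bone marrow and culture did not pass (-0.32 ± 0.18, adjusted p = 0.13). H1f5 fell by 1.13 ± 0.21 in lung against bone marrow (adjusted p = 0.0026). Against culture the change was -0.71 ± 0.22 (adjusted p = 0.013), a call that was lost without culture replicate 3 (0.085) or lung replicate 1 (0.059). In bone marrow H1f5 differed from culture by 0.42 ± 0.21 (adjusted p = 0.096), and by an amount that passed without culture replicate 3 (adjusted p = 0.024). In the annotation the end of H1f4 overlaps the start of H2bc6 on the same strand, so reads over the shared stretch cannot be told apart. H2bc6 (Hist1h2be) was likewise lower in lung than in bone marrow (log2 change -1.01 ± 0.26, adjusted p = 0.014, and 0.057 without lung replicate 2).

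The remaining kept linker gene, H1f1 (Hist1h1a, encoding H1.1), was low everywhere. It was at 0.334, 0.523 and 0.746 CPM in culture, 0.476, 1.27 and 0.87 in bone marrow, and 0.576, 1.11 and 0.569 in lung. The groups overlapped and no comparison passed (adjusted p = 0.19, 0.39 and 0.74). Per kilobase of annotated exon, linker levels in culture ran from H1f2 (109 CPM per kb) through H1f5 (9.29), H1f4 (7.43) and H1f3 (2) to H1f1 (0.721). In bone marrow they ran H1f2 (19.4), H1f5 (12.4), H1f4 (5.95), H1f1 (1.18) and H1f3 (0.217). H1f3 is placed low by its exon model of 7425 bases, and no spread between libraries was computed for these per-length levels. Of the 50-base stretches in H1f2, H1f3, H1f4, H1f5 and H1f1, 8.54%, 2.25%, 32%, 0% and 0% also occurred in other genes' transcripts, so that shared sequence was sparse in all but H1f4.

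**Figure D2:**
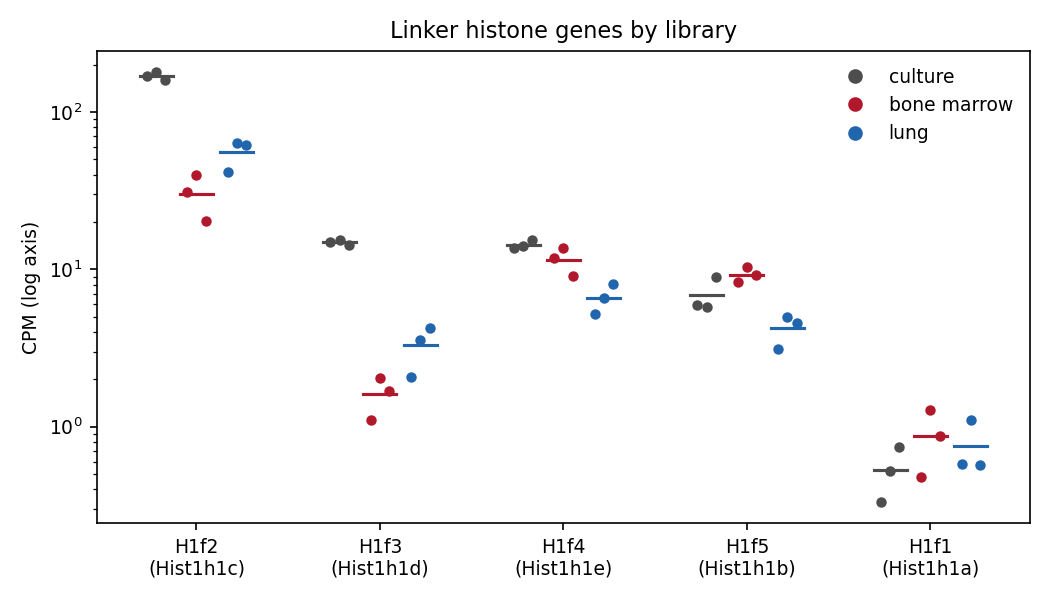
CPM (log axis) of the 5 kept linker histone genes in each library, with the group mean as a bar. H1f2 and H1f3 are highest in culture and lowest in bone marrow, and H1f4 and H1f5 are lowest in lung.

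Across the 35 tested genes, levels were mostly lower in the tissues than in culture. In bone marrow against culture 18 fell and 3 rose. All genes tested passed at 29.8% lower and 30.7% higher, or 60.5% in either direction, against 21 of 35 here (60%): histone cluster genes passed as often as other genes but mostly on the lower side. The median log2 change was -0.96, against 0.05 over all 15066 genes, and 16 of the 35 fell and 3 rose by more than 2-fold, as did 12.2% and 12.5% of all genes. In lung against culture 21 fell and 1 rose (27% and 27.9% of all genes, 54.9% in either direction), with a median of -0.83 against 0.02. There 16 fell and 1 rose by more than 2-fold (10.1% and 10.6% of all genes). These comparisons share the culture libraries. Of the 35 genes, 16 fell in both, 1 rose in both, 4 passed in bone marrow only and 5 in lung only.

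In lung against bone marrow 6 rose and 5 fell, or 31.4% of the 35, against 14.2% higher and 11.1% lower of all genes (25.3% in all; 1796 higher and 2088 lower of 15066 with upper-quartile scaling, against 2138 and 1668 with TMM). The median was 0.13 against -0.01. Each of the 6 that rose (H1f2, H1f3, H2ac6, H2bc4, H3c4 and H3c15) was among the 16 that had fallen in both tissues. The 5 that fell were H1f4, H1f5, H2ac4, H2ac20 and H2bc6. Over 2-fold, 2 rose and 3 fell (4.48% and 2.28% of all genes). The rises depended on the method and on the libraries fitted. In a limma-voom fit of all 9 libraries with quality weights, 3 rose and 5 fell. When only the 6 tissue libraries were fitted, 1 rose and 5 fell, and with the replicate block in those libraries 4 rose and 7 fell. Without lung replicate 2, 1 rose and 4 fell, without lung replicate 3, 1 rose and 5 fell, and without bone marrow replicate 2, 3 rose and 4 fell. Groups that did not overlap were counted too. Lung lay wholly above bone marrow in 7 genes and wholly below in 5 (18.5% and 18.1% of all genes, 36.6% together). Bone marrow lay below culture in 21 and above in 5 (32.9% and 34.3%, 67.2% together), and lung below culture in 24 and above in 1 (32.9% and 34%, 66.8% together).

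**Figure D3:**
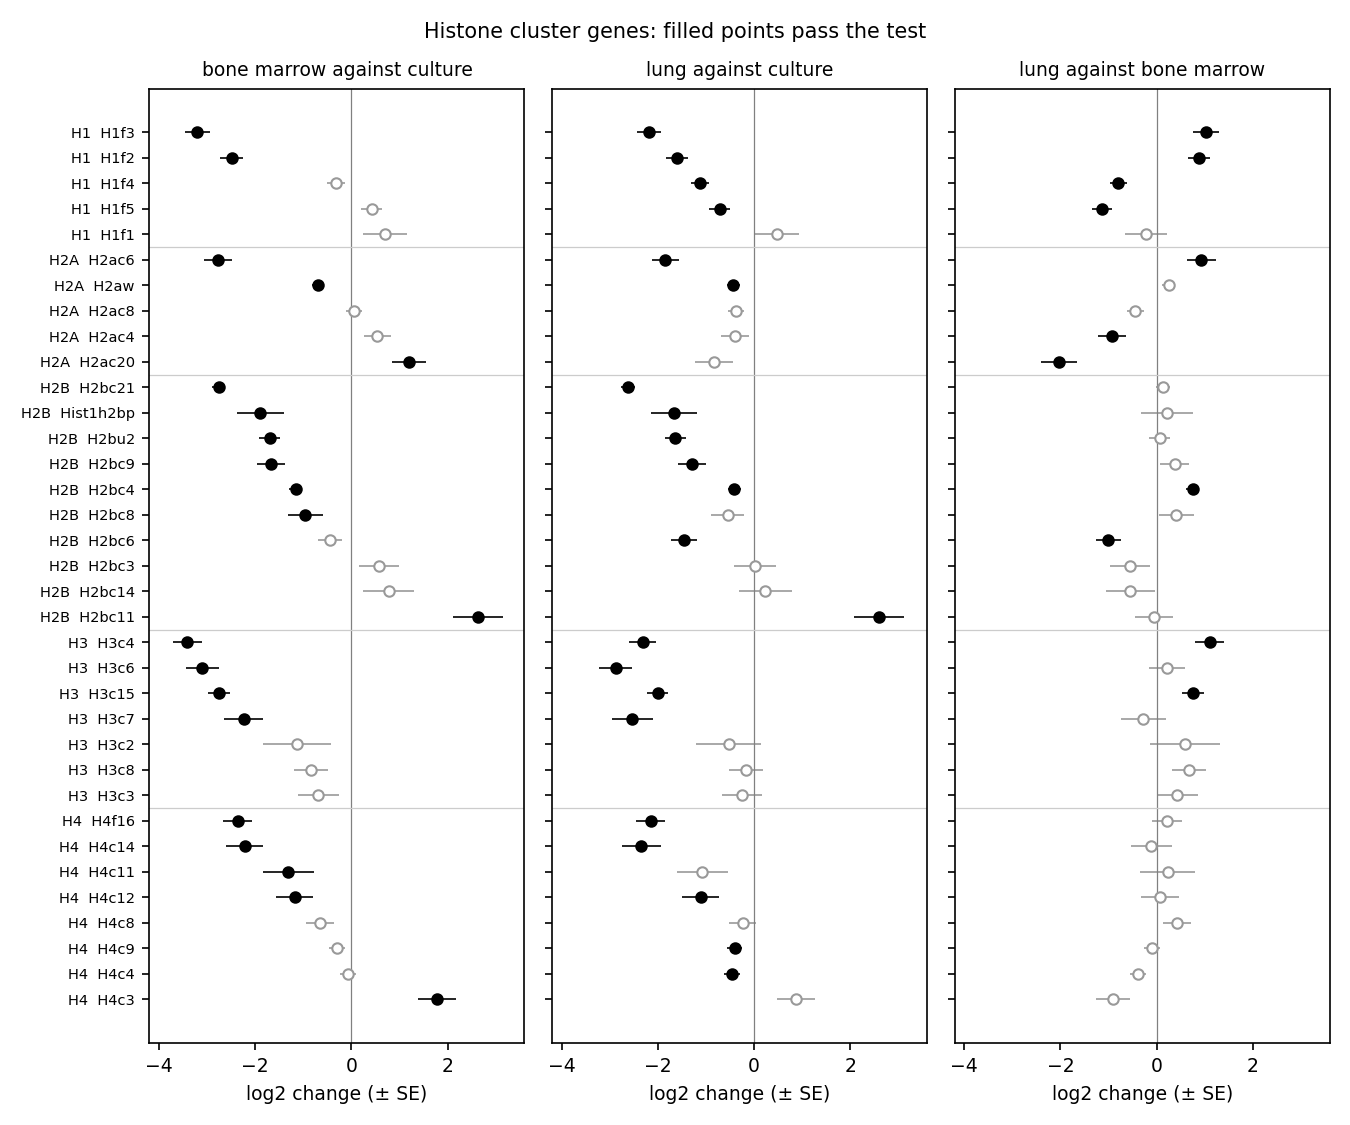
Log2 change with its standard error for the 35 tested genes, by histone class, in the 3 comparisons; filled points pass at an adjusted p under 0.05. Most filled points against culture lie left of 0 (18 of 21 in bone marrow and 21 of 22 in lung), while lung against bone marrow has 6 to the right and 5 to the left.

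H2A pairs with H2B in the nucleosome, and both genes of several head-to-head pairs were measured. H2bc4 (Hist1h2bc; chromosome 13 from 23684199 to 23692908) was the most abundant core gene, at 36.4, 33.6 and 33.6 CPM in culture, 14, 18.9 and 13.6 in bone marrow, and 24.3, 27.7 and 26.2 in lung. The groups did not overlap, and lung lay between. It fell by 1.16 ± 0.13 (log2) in bone marrow against culture (adjusted p = 4.4e-06) and was higher in lung than in bone marrow by 0.75 ± 0.13 (adjusted p = 0.0014). Against culture the log2 change in lung was -0.41 ± 0.13 (adjusted p = 0.014, and 0.053 without lung replicate 1). Its neighbour H2ac6 (Hist1h2ac), which starts 250 bases away on the other strand, was at 4.86, 3.75 and 3.84 CPM in culture, 0.744, 0.65 and 0.423 in bone marrow, and 0.917, 1.11 and 1.42 in lung. H2ac6 had the same order of groups, with log2 changes of -2.78 ± 0.29 in bone marrow (adjusted p = 2.6e-06) and -1.85 ± 0.28 in lung (adjusted p = 7.6e-05). Its rise in lung against bone marrow (0.93 ± 0.3, adjusted p = 0.036) was among the least stable. In the limma-voom fit the adjusted p of H2ac6 was 0.13. Its adjusted p was 0.064 with the replicate block in the tissue libraries, 0.099 without the block, and 0.053 to 0.12 without any 1 of culture replicates 1, 2 and 3, bone marrow replicates 2 and 3, and lung replicates 2 and 3.

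A second head-to-head pair, on chromosome 3 with 238 bases between the starts, moved in opposite directions in bone marrow against culture. H2bc21 (Hist2h2be; 96221119 to 96223738, plus strand) was at 33.9, 33.8 and 31 CPM in culture, 4.55, 4.3 and 5.69 in bone marrow, and 5.42, 4.66 and 5.91 in lung. Its log2 change was -2.76 ± 0.14 in bone marrow (adjusted p = 5.5e-09) and -2.62 ± 0.14 in lung (adjusted p = 1.1e-08). The tissue groups overlapped (0.13 ± 0.15, adjusted p = 0.53). No 50-base stretch of its exons occurred in another gene's transcripts. H2ac20 (Hist2h2ac; 96220361 to 96220880, minus strand) was at 0.556, 0.462 and 0.639 CPM in culture, 1.01, 1.61 and 1.19 in bone marrow, and 0.34, 0.391 and 0.19 in lung. Bone marrow was thus highest and lung lowest for H2ac20, with no overlap. It rose by 1.2 ± 0.35 in bone marrow against culture (adjusted p = 0.0097, and 0.051 without culture replicate 2) and fell by 2.03 ± 0.37 in lung against bone marrow (adjusted p = 0.0021). In lung against culture its change was -0.83 ± 0.39 (adjusted p = 0.087), of the same sign as that of H2bc21. These values stand on 48, 134 and 31 reads per group. Of the 50-base stretches of H2ac20, 55% occurred in other genes' transcripts, and another annotated gene overlaps it. The 11 head-to-head pairs of kept genes included 4 with both genes tested. In the other pairs tested, H2bc9 and H3c7 both fell in both tissues, and H2bc8 fell in bone marrow (-0.96, adjusted p = 0.032) beside H2ac8 at 0.06 (adjusted p = 0.79).

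The other abundant H2A genes changed less. H2ac8 (Hist1h2ae) was at 14.2 ± 1.54 CPM in culture, 14.8 ± 2.86 in marrow and 11 ± 2.06 in lung, and passed no comparison. With the replicate block in the tissue libraries, however, its lung difference from bone marrow (-0.44 ± 0.17, adjusted p = 0.074) had an adjusted p of 0.011. H2aw (Hist3h2a) fell from 15 ± 0.616 CPM in culture to 9.32 ± 0.365 for bone marrow and 11.1 ± 1.33 for lung (log2 change -0.69 ± 0.13 and -0.43 ± 0.13, adjusted p = 0.00039 and 0.011). It lies within the annotated span of Trim17, so reads there could belong to either gene. H2ac4 (Hist1h2ab) was at 1.65 ± 0.536, 2.4 ± 0.444 and 1.26 ± 0.022 CPM and fell in lung against bone marrow by 0.93 ± 0.29 (adjusted p = 0.03). That call was lost without bone marrow replicate 1 or 2 or without any 1 lung replicate, at adjusted p of 0.06 to 0.096. It was also lost in the limma-voom fit (0.089).

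Most H2B genes fell. Of 10 tested, 6 fell and 1 rose in either tissue against culture. Of all genes, 29.8% fell and 30.7% rose in bone marrow, and 27% and 27.9% in lung. H2bu2 (Hist3h2ba) was at 10.7, 9.79 and 9.77 CPM in culture, 3.57, 3.47 and 2.29 in bone marrow, and 2.85, 4.21 and 2.66 in lung, with log2 changes of -1.7 ± 0.22 and -1.64 ± 0.22 (adjusted p = 1.6e-05 and 2.8e-05). H2bc9 fell from 2.9 ± 0.286 CPM to 0.916 ± 0.387 and 1.19 ± 0.129 (log2 change -1.67 ± 0.3 and -1.29 ± 0.29). The exception was H2bc11 (Hist1h2bj), the only tested gene of the 35 that rose in both tissues. It was at 0.0371, 0.0923 and 0.107 CPM in culture, 0.535, 0.681 and 0.348 in bone marrow, and 0.445, 0.587 and 0.474 in lung. The log2 rises were 2.64 ± 0.52 and 2.6 ± 0.52 (adjusted p = 0.00063 and 0.00089), from 7 reads over the 3 culture libraries against 54 and 50, and 59.4% of its 50-base stretches occurred in other genes' transcripts.

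H3 had the lowest class medians. The tested H3 genes had a median log2 change of -2.24 in bone marrow and -2 in lung against culture. In each, 4 of 7 fell and none rose, where 29.8% and 27% of all genes fell and 30.7% and 27.9% rose. H3c15 (Hist2h3c2; chromosome 3 from 96238108 to 96239127) was the most abundant, at 17, 16.5 and 15.5 CPM in culture, 2.59, 1.55 and 3.11 in bone marrow, and 3.2, 4.31 and 4.81 in lung. The log2 changes against culture were -2.75 ± 0.23 and -2 ± 0.22 (adjusted p = 3.3e-07 and 5.8e-06), and 63.5% of its 50-base stretches were shared with other genes. H3c4 (Hist1h3d) was at 4.34, 3.88 and 4.37 CPM in culture, 0.387, 0.248 and 0.522 in bone marrow, and 0.707, 0.881 and 0.949 in lung. Its log2 change of -3.41 ± 0.3 in bone marrow was the largest of the 35 genes in that comparison (adjusted p = 5e-07), and in lung it was -2.31 ± 0.28 (adjusted p = 1.2e-05). For both, bone marrow lay wholly below lung. The rise from bone marrow to lung was 0.75 ± 0.23 for H3c15 (adjusted p = 0.029) and 1.1 ± 0.31 for H3c4 (adjusted p = 0.02). Both were lost without bone marrow replicate 2 (0.097 and 0.072), lung replicate 2 (0.085 and 0.057) or lung replicate 3 (0.094 and 0.053). They were also lost in the 6 tissue libraries alone (0.095 and 0.073), and that of H3c4 in the limma-voom fit (0.068).

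H3c6 (Hist1h3e) fell further in lung than any other tested histone cluster gene, though 73.4% of its 50-base stretches occurred in other genes' transcripts. It was at 3.08, 2 and 2.73 CPM in culture, 0.238, 0.31 and 0.348 in bone marrow, and 0.34, 0.457 and 0.253 in lung, with log2 changes of -3.1 ± 0.34 and -2.88 ± 0.34 (adjusted p = 4.3e-06 and 9.8e-06). H3c7 fell from 1.06 ± 0.119 CPM to 0.224 ± 0.0862 and 0.181 ± 0.0408 (log2 change -2.24 ± 0.4 and -2.53 ± 0.42). The 3 other tested H3 genes, H3c2, H3c3 and H3c8, passed in no comparison. H3c8 was at 1.19 ± 0.175, 0.669 ± 0.256 and 1.06 ± 0.351 CPM.

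H4 genes changed unevenly. The most abundant, H4c9 (Hist1h4i) and H4c4 (Hist1h4d), did not pass in bone marrow. H4c9 was at 24.2, 21.4 and 22.9 CPM in culture, 19.1, 21.4 and 15.1 in bone marrow, and 13.9, 17.5 and 20.7 in lung, and H4c4 at 15.3 ± 1.04, 14.5 ± 2.55 and 11.1 ± 2.11 CPM. In lung against culture their log2 changes were -0.4 ± 0.16 and -0.46 ± 0.17 (adjusted p = 0.044 and 0.03). Either call was lost without culture replicate 1 (0.1 and 0.082), culture replicate 3 (0.093 and 0.061) or lung replicate 1 (0.18 and 0.13), and that of H4c9 also without lung replicate 2 (0.074), with upper-quartile scaling (0.055) or by library size alone (0.068). H4f16 (Hist4h4) and H4c14 (Hist2h4) fell far more. H4f16 was at 2.86, 3.6 and 3.05 CPM in culture, 0.387, 0.681 and 0.771 in bone marrow, and 0.629, 0.783 and 0.727 in lung (log2 change -2.36 ± 0.3 and -2.15 ± 0.3, adjusted p = 1.4e-05 and 3.7e-05). H4c14 fell from 1.93 ± 0.0766 CPM to 0.415 ± 0.264 and 0.38 ± 0.0397 (log2 change -2.22 ± 0.39 and -2.34 ± 0.4). H4c3 (Hist1h4c) rose in bone marrow, from 0.371, 0.554 and 0.391 CPM to 1.61, 1.7 and 1.27 CPM, by 1.78 ± 0.39 (adjusted p = 0.0013). In lung it was at 0.55, 0.587 and 1.3 CPM, with a difference from bone marrow of -0.91 ± 0.36 that did not pass (adjusted p = 0.081) but had an adjusted p of 0.042 with the replicate block in the tissue libraries and 0.015 without lung replicate 3. No H4 gene of 8 tested passed in lung against bone marrow, where 25.3% of all genes did. In that comparison H4c4 changed by -0.39 ± 0.17 (adjusted p = 0.1), and by -0.54 without bone marrow replicate 3 (adjusted p = 0.027).

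In all, 8 tested genes passed in no comparison (H1f1, H2ac8, H2bc3, H2bc14, H3c2, H3c3, H3c8 and H4c8). The 19 kept genes too low to test had 10 to 75 reads each over the 9 libraries and summed to 1.53 to 3.12 CPM for culture, 1.94 to 2.41 for bone marrow and 1.75 to 2.15 for lung, ranges that overlapped. Of the 16 genes under 10 reads, 8 had no read in any library. In 5 of those 8 (H2ac18, H2ac19, H2bc18, H3c13 and H3c14), all 50-base stretches occur in other genes' transcripts. Each of the 5 is itself overlapped by another annotated gene, which counts as another gene here. How reads with several placements were counted was not given, and whether this left the 5 without reads was not tested. Over the kept genes the median share of such stretches was 46.4%, with 23 genes over 50%, so single paralogs are uncertain there. Another annotated gene overlaps 15 of the kept genes, which can raise their share.

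The position of the annotated 3′ end went with the size of the change. This split, at 200 annotated bases past the stem-loop, was chosen after the values were seen and is a description. In the 16 tested genes whose models run 330 to 4884 bases past it (such as H1f2, H1f3, H3c4 and H4f16), 11 fell and 1 rose in bone marrow against culture, with a median log2 change of -2.23. In lung 15 fell and none rose, with a median of -1.73. In the 13 genes whose models end 11 to 169 bases past it (such as H2ac20, H2bc11 and H3c8), 3 fell and 2 rose in bone marrow, with a median of -0.66. In lung 2 of these 13 fell and 1 rose, with a median of -0.38. Of all genes tested, 29.8% fell and 30.7% rose in bone marrow and 27% and 27.9% in lung against culture. Genes of the first set were also more abundant (median 2.5 against 0.71 CPM over all libraries) and shared fewer 50-base stretches with other genes (median 19.2% against 47%), and the part of either in the difference was not tested. The motif was not found after the stop codon in 6 tested genes, of which 4 fell in each tissue. Some of these models may stop short of it (H4c12 has 312 bases of exon), so the 6 are not a set known to lack a stem-loop. AATAAA or ATTAAA, the usual poly(A) signals, lay within the last 40 bases of an annotated transcript in 13 kept genes.

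**Figure D4:**
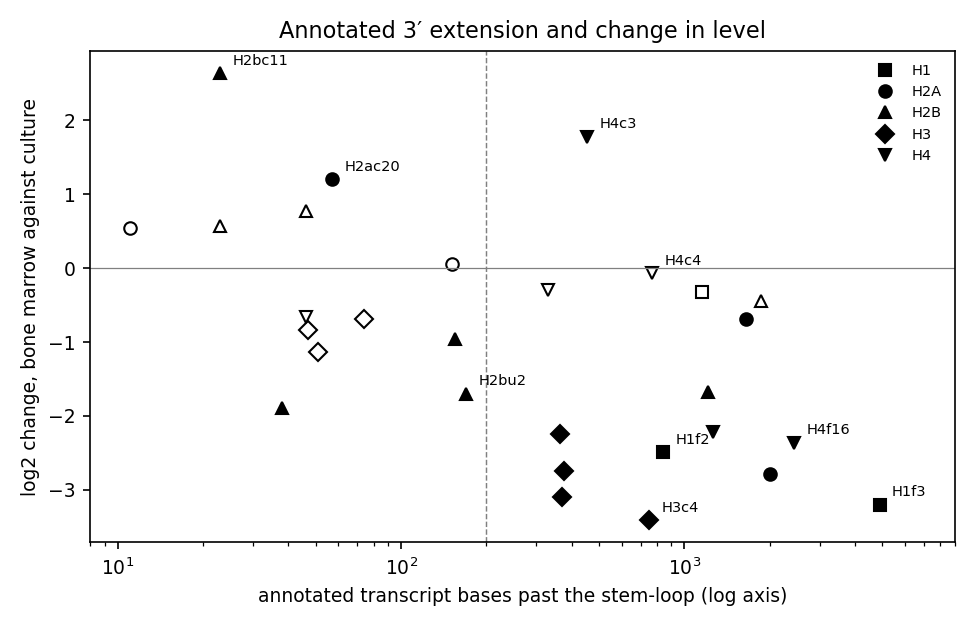
Log2 change in bone marrow against culture plotted on the annotated transcript bases past the stem-loop (log axis) for the tested genes with a stem-loop; shapes are histone classes, filled shapes pass the test, and the dashed line marks 200 bases. Right of the line 11 of 16 genes fall, with H4c3 the one that rises, and left of it 3 of 13 fall.

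Other RNAs that lack a poly(A) tail were barely captured. Of 19 such genes in the files (small nuclear, small Cajal body and similar RNAs), 2 were tested, of which 1 rose in bone marrow against culture, 1 fell in lung against bone marrow and none passed in lung against culture. The list summed to 3.75 to 4.45 CPM for culture, 4.77 to 5.48 for bone marrow and 3.22 to 4.4 for lung, with Snora73b, Snora74a and Rnu11 at 0 everywhere. Rn7sk, a nuclear RNA that restrains transcription elongation, was at 2.35 ± 0.458, 2.06 ± 0.253 and 1.92 ± 0.6 CPM and passed in no comparison (adjusted p = 0.39 to 0.81).

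Genes that process histone mRNA moved in both directions. Of 29 tested, 8 rose and 7 fell in bone marrow against culture (30.7% and 29.8% of all genes). In lung against culture 9 rose and 6 fell (27.9% and 27%), and in lung against bone marrow 4 rose and 3 fell (14.2% and 11.1%). The medians were -0.04, -0.01 and 0.05. Slbp itself passed in no comparison, at 334 ± 5.3 CPM in culture, 331 ± 40 in marrow and 319 ± 35.1 in lung (adjusted p = 0.9 and 0.58 for marrow and lung against culture, and 0.72 between the tissues). Ncbp2, of the cap-binding complex, rose from 58.1 ± 2.1 CPM to 125 ± 8.93 and 102 ± 10.7, by 1.11 ± 0.09 and 0.81 ± 0.09 (adjusted p = 3.1e-07 and 7.3e-06). Srrt, a partner of that complex, rose by 0.71 ± 0.08 and 0.66 ± 0.08. Lsm10, a protein of the U7 particle, fell in lung against culture from 22.1 ± 1.32 to 14.8 ± 2.58 CPM (adjusted p = 0.0089). Casp8ap2, a histone locus body protein, was higher in lung than in bone marrow by 0.4 ± 0.1 (adjusted p = 0.013), and Tut7, which adds uridines to histone mRNA for decay, by 0.36 ± 0.08 (adjusted p = 0.0071). Pou2f1, the octamer-binding factor of H2B promoters, changed against culture by -0.66 ± 0.2 in bone marrow and -0.64 ± 0.2 in lung (adjusted p = 0.014 and 0.018).

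DNA replication genes moved in both directions against culture. Of 41 tested, 16 rose and 8 fell in bone marrow against culture (30.7% and 29.8% of all genes). In lung against culture 13 rose and 5 fell (27.9% and 27% of all genes), and the median was 0.13 in each tissue. In lung against bone marrow 3 rose and 9 fell (14.2% and 11.1% of all genes). Tyms, which makes thymidylate, rose from 131 ± 5.47 CPM to 261 ± 11.1 and 200 ± 9.43 (by 0.99 ± 0.07 and 0.61 ± 0.07), and Rfc3, of the clamp loader, by 0.78 ± 0.08 and 0.61 ± 0.08. Pold1, a replicative polymerase subunit, fell from 373 ± 6.2 to 199 ± 23.4 and 217 ± 8.64 CPM, and the transcription factor gene E2f2 from 110 ± 1.41 to 44.9 ± 8.35 and 58.2 ± 3.56 CPM. Genes of G2 and mitosis fell nearly throughout: 21 of 23 in bone marrow and 22 of 23 in lung against culture, with medians of -0.87 and -1.1. Of all genes, 29.8% and 27% fell in these comparisons. In lung against bone marrow 11 of 23 fell, against 11.1% of all genes. Mki67, a proliferation antigen, fell from 604 ± 15.7 CPM to 192 ± 57.3 and 213 ± 9.96. In bone marrow Birc5, which encodes survivin, rose by 0.24 ± 0.08 (adjusted p = 0.022), and Cdc25c did not pass (-0.25 ± 0.13, adjusted p = 0.11). The part of cell cycle makeup in the histone values was not tested.

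Histone genes outside the clusters, whose mRNAs are for the most part polyadenylated, gave far more of the RNA captured here. Their level cannot be set against that of the cluster genes, since oligo-dT priming copies RNA that carries a poly(A) tail. The list of 14 in the files summed to 2550 to 2590 CPM for culture, 2340 to 2530 for bone marrow and 2040 to 2220 for lung. Of 11 tested, 6 rose and 2 fell in bone marrow against culture (30.7% and 29.8% of all genes). In lung against culture 1 rose and 3 fell (27.9% and 27% of all genes). In lung against bone marrow 7 fell and none rose (median -0.43), against 11.1% lower and 14.2% higher of all genes. H1f0, the replacement linker histone of resting cells, fell from 396 ± 7.73 CPM in culture to 163 ± 24.7 in bone marrow and 121 ± 14.6 in lung, with log2 changes of -1.28 ± 0.11 and -1.72 ± 0.11 (adjusted p = 4.9e-07 and 6.2e-08). Unlike H1f2, it was lower in lung than in bone marrow (-0.43 ± 0.11, adjusted p = 0.012). Cenpa, the centromeric H3, was at 225 ± 12.3, 214 ± 15.2 and 135 ± 11.1 CPM and fell in lung against bone marrow by 0.67 ± 0.09 (adjusted p = 0.00019). H2az2 fell in both tissues (213 ± 6.34, 146 ± 13.3 and 107 ± 4.3 CPM), whereas H2aj rose in both (80 ± 6.09, 144 ± 13.9 and 124 ± 6.82 CPM). H3f3a, a gene for the replacement histone H3.3, rose in bone marrow by 0.51 ± 0.08 (adjusted p = 0.00015) and was lower in lung than there (-0.42 ± 0.08, adjusted p = 0.0032).

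Histone chaperones, which carry new histones to DNA, moved in both directions. Of 29 tested, 14 rose and 8 fell in bone marrow against culture (30.7% and 29.8% of all genes). In lung against culture 13 rose and 3 fell (27.9% and 27%), and in lung against bone marrow 2 rose and 5 fell (14.2% and 11.1%). Ipo4, an importin for H3 and H4, rose from 40.6 ± 2.97 CPM to 95.6 ± 3.6 and 110 ± 4.24 (by 1.23 ± 0.08 and 1.44 ± 0.08). Chaf1b, of the replication-coupled chaperone CAF-1, rose from 75.4 ± 3.22 to 145 ± 20.3 and 128 ± 10.3 CPM. Falls included Asf1b, which hands H3 and H4 to CAF-1 (log2 change -0.36 ± 0.08 and -0.45 ± 0.08), and Hjurp, the chaperone of Cenpa (-0.46 ± 0.07 and -0.66 ± 0.07).

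Markers of cell identity and of other cells moved between the same groups. Of all genes tested, 30.7% rose and 29.8% fell in bone marrow and 27.9% and 27% in lung against culture. In lung against bone marrow 14.2% rose and 11.1% fell. These shares apply to the counts of the next paragraph too. Of 15 tested AML and progenitor genes, 6 rose and 6 fell in bone marrow and 5 rose and 4 fell in lung against culture, and 2 rose and 2 fell in lung against bone marrow. Kit fell to 633 ± 59.5 and 631 ± 129 CPM, and Gata2 from 299 ± 2.63 to 52.3 ± 2.86 in bone marrow and 186 ± 22 CPM in lung. All 14 neutrophil markers rose in bone marrow against culture, 1 rose in lung, and 13 were lower in lung than in bone marrow, with Ngp at 90, 144 and 504 CPM in the bone marrow libraries. Of 11 tested macrophage and monocyte markers, 9 rose in bone marrow and 10 rose and 1 fell in lung against culture, and the list summed to 44.7, 81.1 and 330 in bone marrow and 75.6, 28.8 and 48 CPM in lung. Lung epithelium markers (3 of 4 tested rose in lung against either group) summed to 89.9, 42.3 and 18 CPM in lung and to at most 4.87 CPM elsewhere. T and NK cell markers stayed at or under 4.43 CPM in every library, with 2 of 4 tested higher in bone marrow and 4 in lung than in culture and 2 in lung than in bone marrow.

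The remaining 4 marker lists contained genes that the cultured cells themselves expressed. Endothelial markers summed to 308 to 345 CPM for culture, 204 to 241 for bone marrow and 237 to 279 for lung, mostly Calcrl and Egfl7. Of 11 tested, 2 rose and 2 fell in bone marrow, 9 rose and 1 fell in lung against culture, and 8 rose in lung against bone marrow. Erythroid markers summed to 1610 to 1770, 821 to 1050 and 929 to 1130 CPM, led by Tfrc and Klf1, with 2 up and 3 down of 8 in bone marrow, 4 up and 3 down in lung, and 2 up in lung against bone marrow. B cell markers summed to 311 to 325, 10.4 to 94.3 and 17.3 to 90.6 CPM, almost all Ighm in culture. Of 6 tested, 3 rose and 1 fell in bone marrow, 2 rose in lung, and none passed between the tissues. Fibroblast and stroma markers summed to 239 to 256, 142 to 213 and 183 to 269 CPM, mostly Col1a2, with 3 up and 2 down of 6 in bone marrow, 4 up in lung, and 2 up in lung against bone marrow. The part of these cells in the histone cluster values was not tested. Without bone marrow replicate 3, the library with the most neutrophil RNA, the log2 change of H1f2 was -2.26 in bone marrow against culture and 0.64 in lung against bone marrow (adjusted p = 6.3e-07 and 0.018), and that of H2bc4 was -1.07 and 0.65 (adjusted p = 1.3e-05 and 0.0043).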

How the data were processed

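The authors deposited raw read counts per gene for each library, unstranded per the deposited files' names. Per the submitters' processing notes, bcl2fastq, STAR and mm10 were used; their versions, the counting tool and its annotation were not given in the sources used here. Counts of fragments amplified by PCR are not independent molecules.

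The histone cluster genes and all gene lists were chosen with earlier results of these data known. The rule for the genes asked for current symbols starting with Hist1h to Hist4h, which match only 9 rows, so RefSeq's older symbols (GRCm38.p6) were used to find the 70 genes; all 70 had a gene in GENCODE M21 (GRCm38), which gives coordinates, exon lengths and transcripts. Genes were named by rule: every kept linker gene, the 3 most abundant genes of each core class, per comparison the 4 largest rises and falls among passing genes of 1 CPM or more, up to 2 passing genes per direction of each other list, and the 2 most abundant markers. H2bc8, H2bc9, H2bc11, H2bc15, H4c12, H4f16, the genes said to pass nowhere or to lack reads, Cd34, Myb, Cdc25c and the RNAs listed at 0 fall outside this rule. They were named after their values were seen.

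Of 55291 genes, 21421 had 10 or more reads and 15066 passed filterByExpr. Libraries were scaled by TMM (factors 0.9658 to 1.039), and the quasi-likelihood test of edgeR 4.0.16 (robust, R 4.3.3) was fitted once over all 9 libraries for the 3 contrasts. Adjusted p-values are Benjamini-Hochberg over all genes tested, and a gene passed under 0.05. Alternatives used DESeq2 1.42.0 and limma 3.58.1 (voom), other scalings, filters and sets of libraries. On simulated counts with known 2-fold changes the fit recovered 82.1% of genes for marrow and 79.1% for lung against culture. Between the tissues it recovered 83.6%. False calls among 14707 genes numbered 6, 3 and 8 in these comparisons. The shares are over 67 changed genes each and were not split by level. Of the 35 tested histone cluster genes, 10 had means under 1 CPM in every group, so the shares need not hold for them.

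Whether equal replicate numbers mark a shared mouse is in no label. Within each number, the bone marrow and lung residuals over the tested genes had correlations of 0.12, 0.36 and 0.13. Between unlike numbers they ran from -0.29 to 0.11, so the evidence for pairing is weak. The numbers were treated as pairing these groups in alternative fits only. Adjusted p-values given without a named alternative come from the fit without a block. Culture libraries did not pair with the tissue libraries of their number (-0.07 to 0). Replicates differed beyond sampling noise in every group (chi-square over its degrees of freedom 4.17 or more), so none was a re-count of the same library. This does not show that they came from separate cultures or animals.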

Additional observations from a re-analysis of the deposited data

How the results depend on the processing

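Across the alternatives for the counts of passing genes and the linker to core ratio, 88 values stayed close to the reported one, 6 counts were lower by more than 1.5 times, and the ratio moved in 2 and turned sign in 3. With a filter of 1 CPM in 6 libraries, which left 16 of the genes to test, 9 passed in bone marrow against culture (21 before) and 13 in lung against culture (22). In lung against bone marrow, 6 in place of 11 passed when only the 6 tissue libraries were fitted. With limma-voom 8 passed in that comparison, 7 of them among the 11. Leaving out 1 library gave 5 to 12 passing genes in lung against bone marrow, 18 to 21 in bone marrow against culture and 18 to 23 in lung against culture. The linker to core difference ran from 0.24 to 0.45, from -1.11 to -0.91 and from -0.73 to -0.56 in these 3 comparisons when 1 library was left out. Without H1f2 and H2bc4 it was -0.54, 0.25 and -0.29. As a mean of log2(CPM + 0.5) it was -0.03 in lung against bone marrow and -0.54 in bone marrow against culture. In bone marrow against culture the linker sum leaned on H1f2, with a log2 ratio of -0.66 without it in place of -1.95. The core sum leaned little on H2bc4 there (-0.92 without it in place of -0.95). The means weight low genes equally. With the replicate block in the tissue libraries 11 genes passed in lung against bone marrow, 9 of them shared with the fit of all 9 libraries without a block. Against that fit H1f2 and H2ac6 were lost and H2ac8 and H4c3 gained, and no other call on a named gene in that comparison changed; without the block, the tissue libraries alone had already lost H1f2 and H2ac6. Signs turned for some changes that did not pass when 1 library was left out. In lung against bone marrow they ranged from -0.61 to 0.14 for H1f1, -0.18 to 0.18 for H2bu2, -0.02 to 0.39 for H3c6, -0.43 to 0.49 for H4c14 and -0.25 to 0.04 for H4c9. In bone marrow against culture the range was -0.11 to 0.15 for H2ac8 and -0.19 to 0.06 for H4c4. The cause of these turns was not tested. At 0.0249 to 0.0371 CPM a read, genes under about 1 CPM rest on few reads.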
